A study of Mus musculus with 7 samples.

Results

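Evc and Evc2, with 6 core genes of the hedgehog pathway (Smo, Ptch1, Gli1, Gli2, Gli3 and Sufu), were followed through 7 libraries of sorted mouse bone marrow progenitors. All 8 genes were chosen by name and all 8 were among the 23930 genes of the tables. The choice was made with counts of these same libraries known, so the levels of the 8 genes and the differences between groups are given as a description, with no test. Expression was measured with a targeted RNA sequencing panel, which amplifies a short stretch of each gene. Common myeloid progenitors (CMPs) came from C57BL/6 mice (BL/6, 2 libraries) and from pMT-10 mice (2 libraries), which overexpress IL-10 from a metallothionein promoter that zinc switches on. LSK cells (Lineage- SCA-1+ c-KIT+) sorted as CD150+ CD48+ gave 2 further pMT-10 libraries, and there was 1 of haematopoietic stem cells, termed HSC. Mice of all groups, controls included, had taken zinc in drinking water for 15 days. The labels give no age, no number of animals behind a library and no gate for the CMP and HSC sorts. BL/6 LSK cells and BL/6 HSC were not analysed here, so a difference of the HSC library from other groups cannot be set beside the same cells without the transgene.

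Hedgehog ligands bind Patched receptors at the cell surface, which frees Smoothened to enter the primary cilium and to signal to the Gli transcription factors. Sufu holds Gli proteins back in the absence of ligand, and Gli1 and Ptch1 are themselves induced when the pathway is active. Evc and Evc2 encode a pair of membrane proteins that bind each other and Smoothened near the base of the cilium, where they pass its signal on. In humans, loss of either causes Ellis-van Creveld syndrome, a disorder of bone and tooth growth, and the pair is best known from cartilage. Studies in mice have differed on whether adult blood stem cells need the pathway.

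Totals ran from 7372430 counts (HSC) to 13854314 counts (CD150+CD48+ LSK replicate 2). BL/6 CMPs shared a sequencing chip with HSC, and pMT-10 CMPs shared another with CD150+CD48+ LSK cells, so strain and chip cannot be told apart in the CMPs. Nor can cell type and chip be told apart where HSC are set against pMT-10 CMPs or CD150+CD48+ LSK cells. Over genes, the SD of the log2 difference within a pair was 0.823 for pMT-10 CMPs, 0.474 for CD150+CD48+ LSK cells and 0.385 for BL/6 CMPs. The HSC library matched its label by the stem cell genes measured. The stem cell genes Hlf and Ctnnal1 had 587 and 216 counts there, against at most 300 and 93 in any other library. Procr, a surface marker of stem cells, had 291 counts in the HSC library and at most 19 elsewhere. CPM here divides counts by library totals scaled with TMM factors. The 7 granulocyte and monocyte genes summed to 303 and 268 CPM in BL/6 CMPs, 567 and 884 CPM in pMT-10 CMPs, and 89.7 and 73.1 CPM in CD150+CD48+ LSK cells. Their sum of 179 CPM in HSC came mostly from Prtn3 (695 counts) and Irf8 (514 counts), with 2 counts of Mpo. Among CMPs, Ms4a3 had 191 and 298 counts in pMT-10 against 36 and 30 in BL/6 libraries. Kit had 864 and 1209 against 3282 and 3387, and Gata1 1619 and 2264 against 4556 and 5291. Genes within a list differed in direction. In the list of Ms4a3, Mpo had 76 and 52 counts in pMT-10 against 131 and 208, and Irf8 463 and 553 against 763 and 748. In the list of Gata1, Itga2b had 3388 and 4740 against 2009 and 2376, and Pf4 1192 and 1944 against 663 and 883. The part of these mixed marker differences in the other differences between pMT-10 and BL/6 CMPs was not tested. The 6 erythroid and megakaryocyte genes summed to 2639 CPM in HSC and to 1313 to 1823 CPM elsewhere, but the higher sum came from Itga2b (1160 CPM) and Pf4 (651 CPM). Klf1, an erythroid factor, had 22 counts in HSC against 330 to 663 elsewhere, and Gata1 and Epor had 1251 and 586 counts, fewer than in any other library. Cd48 had 49 counts in HSC and 221 to 686 elsewhere. The 5 genes of surface proteins used to sort such cells (Kit, Ly6a, Slamf1, Cd48 and Cd34) summed to 661 CPM in HSC and to 292 to 545 CPM in the other libraries. That sum mixes genes that differed in direction. Cd34 had 578 counts in HSC, 183 and 415 in CD150+CD48+ LSK cells and 1089 to 1784 in CMPs. Kit had 1190 counts in HSC, and 695 and 1636 in CD150+CD48+ LSK cells. Ly6a and Slamf1 had 2502 and 675 counts in HSC, and at most 242 and 276 in CMPs. In CD150+CD48+ LSK cells Ly6a had 2785 and 3458 counts and Slamf1 456 and 832.

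Evc and Evc2 lie head to head on chromosome 5. In the RefSeq annotation of GRCm38.p6, which is the mm10 build, Evc runs from 37288970 to 37336947 on the minus strand and Evc2 from 37338478 to 37425055 on the plus strand. Their transcription starts, as the promoter table places them, are 1597 bases apart. The stretches before the starts are shown because both genes were high in the lone HSC library and near 0 elsewhere. They are RefSeq sequence of GRCm38.p6, 5′ to 3′ on the strand of each gene, and capitals mark the longest stretch of letters that the windows share, 13 bases, which faces the opposite way in the other window.
Evc: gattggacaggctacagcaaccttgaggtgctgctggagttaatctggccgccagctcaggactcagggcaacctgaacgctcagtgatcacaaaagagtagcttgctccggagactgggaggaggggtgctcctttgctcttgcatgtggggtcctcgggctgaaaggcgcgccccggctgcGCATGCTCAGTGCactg
Evc2: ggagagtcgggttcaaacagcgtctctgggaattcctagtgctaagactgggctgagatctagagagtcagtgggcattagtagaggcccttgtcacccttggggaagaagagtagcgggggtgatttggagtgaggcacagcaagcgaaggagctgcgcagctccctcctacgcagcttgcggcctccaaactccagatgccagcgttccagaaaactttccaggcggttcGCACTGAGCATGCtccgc
The Evc sequence covers chr5:37336932-37337131 and the Evc2 sequence chr5:37338228-37338477. The shared stretch starts 67 bases before the Evc start and 18 bases before the Evc2 start, counted from the starts of the promoter table. For Evc that start is at 37336881, inside the annotated gene extent, so most of the marked stretch and the end of the printed Evc sequence also lie within that extent. The printed Evc sequence stops short of the start. On either strand the shared stretch occurred in 10 of 32851 promoter windows of 300 bases in the RefSeq table (0.0304%), these 2 included. It was found by looking for what the windows share, so this share is a description. The Gli binding motif GACCACCCA, searched on both strands, was in 0 of the 7 windows that the table holds for the 8 genes and in 0.253% of all windows. TATAAA was also in 0 of the 7 and in 13.6% of all windows. The Evc and Evc2 windows hold 16 and 19 CpG dinucleotides, against a median of 7 over all windows, and the other members hold 12 (Sufu), 17 (Smo), 28 (Gli2), 39 (Gli3) and 47 (Ptch1).

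Evc was detected at more than a few counts only in the HSC library. It had 332 counts there. It had 1 and 3 counts in BL/6 CMPs, 0 and 0 in pMT-10 CMPs, and 1 and 0 in CD150+CD48+ LSK cells. None of those 6 libraries exceeded 3 counts, the floor used here, since a count of 0 allows up to 3. The HSC level was 43.9 CPM, with an exact 95% Poisson interval of 39.3 to 48.9 CPM that covers counting error only. This was at least 126-fold higher than in pMT-10 CMPs, taking the floor of 3 counts in the smaller of those libraries. Against BL/6 CMPs, which were read on the same chip as the HSC library, the ratio was 255 (exact 95% counting interval 98.6 to 941). Against CD150+CD48+ LSK cells, with 1 count in both libraries together, it was 987 (176 to 39080). With 1 HSC library these ratios have no replicate check, and in bulk RNA fewer cells of a type and less RNA per cell cannot be told apart.

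Evc2, the partner of Evc, showed the same picture. It had 185 counts in the HSC library. It had 1 and 2 counts in BL/6 CMPs, 2 and 0 in pMT-10 CMPs, and 2 and 2 in CD150+CD48+ LSK cells. The HSC level was 24.5 CPM (exact 95% Poisson interval 21.1 to 28.3 CPM). The ratio of HSC to CD150+CD48+ LSK cells was 137 (exact 95% counting interval 52.8 to 510), that to pMT-10 CMPs 217 (59.1 to 1802) and that to BL/6 CMPs 189 (63.8 to 927). The HSC library stood alone for both genes, and the other 6 libraries overlapped near 0.

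**Figure D1:**
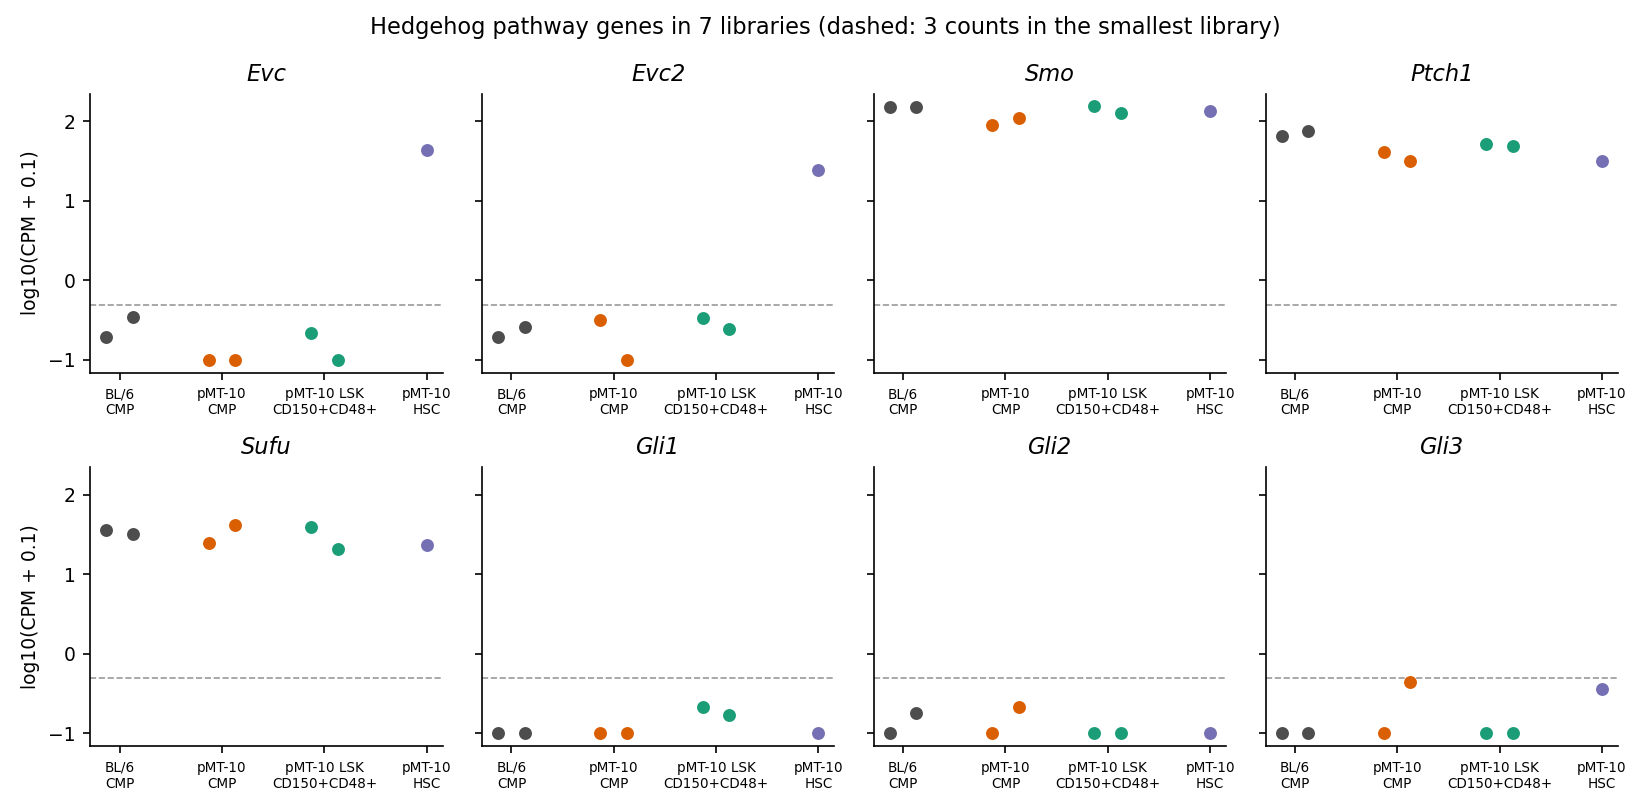
Level of each of the 8 genes as log10(CPM + 0.1), with 1 point per library in 4 groups and a dashed line at 3 counts in the smallest library. Evc and Evc2 lie above the line only in the HSC library, at 43.9 and 24.5 CPM, Smo, Ptch1 and Sufu lie above it in all 7, and Gli1, Gli2 and Gli3 in none.

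A pattern of this size was rare in the tables. Of the 23930 genes, 122 (0.510%) had 10 or more counts in the HSC library and 3 or fewer in each of the other 6. By count, Evc was the first of these and Evc2 the second. Only 4 genes (0.0167%) reached 100 counts under that rule, the other two being Lhcgr, a gonadotropin receptor gene (128 counts), and Clip3, a microtubule-binding protein gene (113 counts). When any other library was taken as the odd one, 0 to 13 genes had 10 or more counts there and 3 or fewer elsewhere, and 0 reached 100. HSC is the only group with 1 library, and a gene high in a group of 2 libraries fails the rule through the other library, so these numbers are not a like comparison. These are the values that make Evc and Evc2 stand out, and nothing further is read from their ranks.

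**Figure D2:**
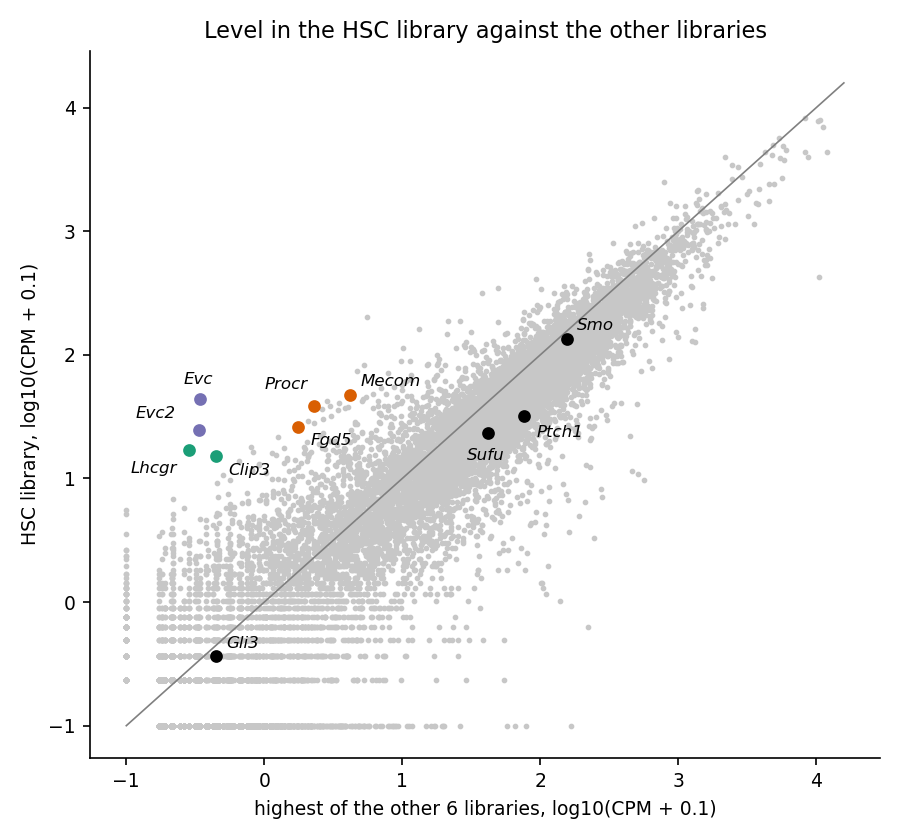
Level of every gene with a count in the HSC library (vertical) against the highest of the other 6 libraries (horizontal), both as log10(CPM + 0.1), with the line of equal levels. Evc (43.9 against 0.242 CPM) and Evc2 (24.5 against 0.234 CPM) lie far above the line, left of the stem cell genes Mecom, Procr and Fgd5, and Smo, Ptch1 and Sufu lie near or below it.

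The genes whose levels ran most like those of Evc over the 7 libraries were Lhcgr, Evc2, Clip3, D630039A03Rik and Slc10a4, by Pearson correlation of log2(CPM + 1) (r = 0.998, 0.998, 0.992, 0.989 and 0.988). For Evc2 they were Evc, Lhcgr, Fkbp11, Nsg1 and Cdkn1c (r = 0.998, 0.997, 0.994, 0.993 and 0.992), of which Cdkn1c encodes a cyclin-dependent kinase inhibitor. The HSC library is the only high point in each case, so that 1 library sets these correlations, and 80 of 8858 genes compared with Evc reached r of 0.95. By Spearman correlation, 0 of these 5 genes were among the first 5 for either. Among the stem cell genes, Mecom had 360 counts in HSC and 23 to 56 elsewhere, and Fgd5 had 198 in HSC and 0 to 18 elsewhere. Unlike Evc and Evc2, these genes were above the floor in BL/6 CMPs, with 25 and 38 counts for Mecom and 18 and 12 for Fgd5.

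Of 14 measured stromal, bone and cartilage genes, 8 had 0 counts in the HSC library (Cxcl12, Lepr, Pdgfra, Col1a1, Col2a1, Acan, Sox9 and Sp7). The list summed to 49.8 CPM in HSC and to 79.2 to 91.7 CPM in the other 6 libraries, with most of it from Pdgfrb and Runx2. In HSC 5 of the 14 were over the floor, Runx2 with 251 counts, Pdgfrb with 72, Alpl with 26, Col1a2 with 19 and Nes with 6. Alpl, a phosphatase of bone-forming cells, had at most 1 count elsewhere, whereas Runx2 and Pdgfrb had more counts than in HSC in at least 3 of the other libraries. The 5 endothelial genes summed to 170 CPM in HSC and to 117 to 184 CPM elsewhere. Cdh5, which defines endothelium, had 0 counts in HSC, and Emcn, also found on stem cells, had 132 counts in HSC and at most 31 elsewhere. The 7 T, NK and B cell genes summed to 5.03 CPM in HSC, nearly all from Klrb1c with 37 counts, and to 0.144 to 0.369 CPM elsewhere. The part of cells with these markers in the Evc and Evc2 counts was not tested.

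The genes on either side of the pair did not share its pattern. Crmp1, which overlaps the far end of Evc by 3194 bases on the other strand, had 0 counts in all 7 libraries. On the same side, Gm1043 had 0 to 2 counts and Jakmip1 had 41 counts in HSC against 155 to 241 elsewhere. On the Evc2 side, Stk32b and Cytl1 had 0 counts in every library and Msx1 had 0 to 2. Within this stretch of chromosome 5, counts that were high in HSC and near 0 elsewhere were thus seen for Evc and Evc2 alone. The labels do not say whether counting used the strand. Where the Evc amplicon lies is not given in the sources used here.

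**Figure D3:**
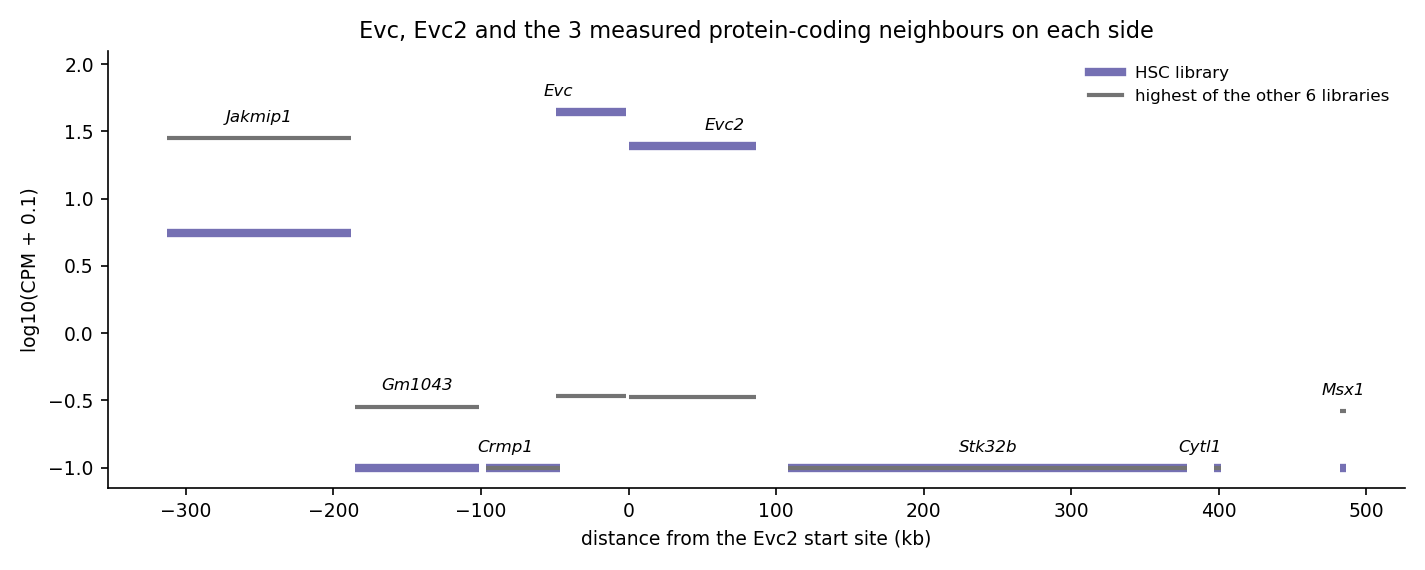
Level of Evc, Evc2 and the 3 measured protein-coding neighbours on each side as log10(CPM + 0.1), drawn over each gene's extent as the distance from the Evc2 start in kb, for the HSC library (thick) and the highest of the other 6 libraries (thin). Only Evc and Evc2 are higher in the HSC library, and Jakmip1 is lower there (5.43 against up to 28.2 CPM).

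Smo, which encodes the signalling receptor Smoothened and lies at chr6:29735497-29761366 (GRCm38.p6), was present in every library at 820 to 1900 counts. Its level was 152 and 154 CPM in BL/6 CMPs, 90.5 and 111 in pMT-10 CMPs, 155 and 129 CPM in CD150+CD48+ LSK cells and 135 CPM in HSC. The pMT-10 CMPs were lowest and did not overlap any other group. The range of CD150+CD48+ LSK cells took in both BL/6 libraries and the HSC value, which itself lay below BL/6 CMPs. The group means were 153 ± 1.20, 101 ± 14.5 and 142 ± 18.9 CPM (SD, n = 2 each) for BL/6 CMPs, pMT-10 CMPs and CD150+CD48+ LSK cells. The fitted log2 difference was -0.60 ± 0.19 (SE) for pMT-10 against BL/6 CMPs and 0.50 ± 0.19 for CD150+CD48+ LSK cells against pMT-10 CMPs. For HSC against CD150+CD48+ LSK cells it was -0.07 ± 0.23, with a sign that turned without CD150+CD48+ LSK replicate 1 (0.07).

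Ptch1, which encodes the hedgehog receptor that holds Smoothened back and is also a target of the pathway, lies at chr13:63508328-63573460. It was at 66.1 and 76.0 CPM in BL/6 CMPs. The pMT-10 CMPs were at 41.5 and 31.4 CPM, with 52.0 and 49.0 CPM in CD150+CD48+ LSK cells and 31.9 CPM in HSC. The order from high to low was BL/6 CMPs, CD150+CD48+ LSK cells, then pMT-10 CMPs with HSC inside their range. The log2 difference of pMT-10 against BL/6 CMPs was -0.96 ± 0.21 (SE), from 71.1 ± 7.01 to 36.5 ± 7.13 CPM (SD, n = 2 each). It was 0.47 ± 0.21 for CD150+CD48+ LSK cells (50.5 ± 2.13 CPM) against pMT-10 CMPs and -0.66 ± 0.27 for HSC against CD150+CD48+ LSK cells. Ptch1 was thus not high in the library in which Evc and Evc2 were. Between HSC and pMT-10 CMPs the difference was -0.19 ± 0.27 and its sign turned without pMT-10 CMP replicate 1 (0.02).

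Sufu (chr19:46396896-46488804), which encodes the restraint on Gli proteins, varied as much within groups as between them. The BL/6 CMPs were at 36.0 and 32.2 CPM and pMT-10 CMPs at 24.5 and 41.7 CPM, with 39.9 and 20.8 CPM in CD150+CD48+ LSK cells and 23.4 CPM in HSC. All groups of 2 libraries overlapped, and the HSC value lay inside the range of CD150+CD48+ LSK cells and just under that of pMT-10 CMPs. It also lay below both BL/6 CMP libraries. Of the 3 genes that were detected in every library, Smo and Ptch1 were lower in pMT-10 than in BL/6 CMPs with no overlap, a pattern that 33.7% of the 11429 tested genes showed in that direction. The same 2 were higher in CD150+CD48+ LSK cells than in pMT-10 CMPs with no overlap, as were 27.8% of genes. The HSC value of Ptch1 lay below both CD150+CD48+ LSK libraries, as for 41.6% of genes, and that of Smo above both pMT-10 CMP libraries, as for 41.1%. These comparisons share libraries and the shares are high, so the counts say nothing particular to the pathway.

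**Figure D4:**
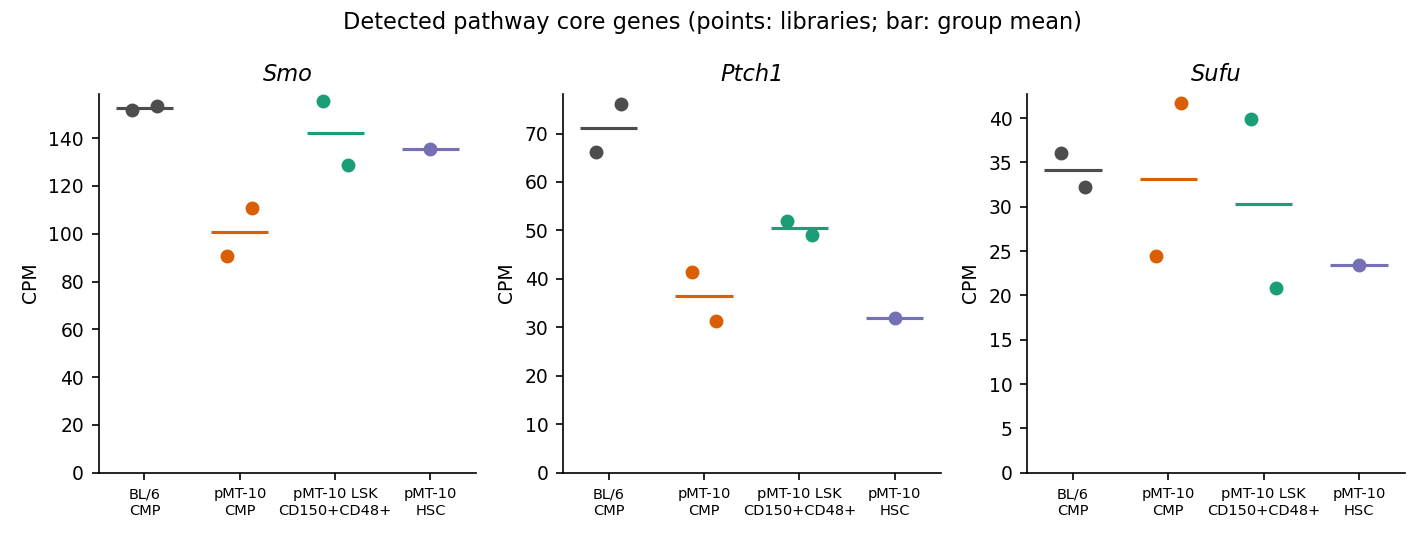
CPM of Smo, Ptch1 and Sufu by group on a linear axis from 0, with 1 point per library and a bar at the group mean. Smo and Ptch1 are lower in pMT-10 CMPs (101 and 36.5 CPM) than in BL/6 CMPs (153 and 71.1 CPM), and the groups of 2 libraries overlap for Sufu.

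The Gli transcription factors, the last step of the pathway, were at or under the floor in every library. Gli1 had 1 and 1 counts in CD150+CD48+ LSK cells and 0 in the other 5 libraries. Gli2 had 1 count in BL/6 CMP replicate 2, 1 in pMT-10 CMP replicate 2 and 0 elsewhere. Gli3 had 3 counts in pMT-10 CMP replicate 2, 2 in HSC and 0 elsewhere. A count of 0 allows 3 counts, which is 0.216 to 0.397 CPM in these libraries, and differences between groups were not detectable at this depth. Evc and Evc2 were therefore measured in the HSC library beside Smo, Ptch1 and Sufu, but with no Gli gene above the floor. These 3 genes did not pass the filter on low counts, and the other 5 members did. Evc and Evc2 passed it through the HSC library alone.

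The wider pathway was read from lists of 96 other genes, of which 94 were in the tables and 76 passed the filter. In pMT-10 against BL/6 CMPs 8 rose and 13 fell, 27.6% of the 76 against 28.0% of the 11429 genes tested (14.3% higher and 13.7% lower), with a median log2 difference of -0.12 against 0.01. In CD150+CD48+ LSK cells against pMT-10 CMPs 8 rose and 3 fell, 14.5% against 11.8% (5.92% in each direction), with medians of 0.05 and -0.01. For HSC against CD150+CD48+ LSK cells 6 rose and 4 fell, 13.2% against 18.8% (10.6% and 8.15%), with medians of 0.15 and 0.03. The balance turned to 4 higher and 6 lower with DESeq2, and to 9 higher and 12 lower without the filter on low counts. It kept its direction with RLE factors, total counts, limma-voom and only the groups compared, and was even at a minimum count of 50. For HSC against pMT-10 CMPs 14 rose and 8 fell, 28.9% against 25.5% (13.8% and 11.7%), with medians of 0.23 and 0.02. Both counts of genes that rose in HSC include Sfrp1, which passed the filter through the HSC library alone. These counts rested on single libraries. The first became 3 or 5 when BL/6 replicate 1 or 2 was left out, and 32 when pMT-10 CMP replicate 1 was. The second became 1 or 2 without CD150+CD48+ LSK replicate 1 or 2, 7 without either BL/6 library, and 26 or 17 without pMT-10 CMP replicate 1 or 2. The third became 0 by edgeR without either CD150+CD48+ LSK library (20 and 17 genes at an unadjusted p under 0.05 without replicate 1 and 2), 1 without either BL/6 library and 35 without either pMT-10 CMP library. The fourth fell without either BL/6 library or either CD150+CD48+ LSK library, and rose without either pMT-10 CMP library. In every comparison with HSC, its 1 library is assumed to vary like the others, and where a pair is left with 1 library the same is assumed of it.

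Ligands were at or near 0. Shh and Dhh had 0 counts in all 7 libraries. Ihh, the ligand of cartilage and bone, had 4 counts in pMT-10 CMP replicate 2 and 5 in CD150+CD48+ LSK replicate 2, both over the floor, and 0 or 1 in the other 5 libraries. Of the genes for making and releasing ligand, Hhat, which attaches palmitate to it, was at 3.67 to 5.58 CPM by group. Disp1, which releases ligand from the cell, had 44 and 56 counts in BL/6 CMPs, 10 and 6 in pMT-10 CMPs, 104 and 112 in CD150+CD48+ LSK cells and 21 in HSC. It fell in pMT-10 against BL/6 CMPs (log2 difference -2.24 ± 0.46 SE, edgeR adjusted p = 0.00859). It was higher in CD150+CD48+ LSK cells than in pMT-10 CMPs (3.46 ± 0.45, edgeR adjusted p = 0.00317) and lower in HSC than in CD150+CD48+ LSK cells (-1.85 ± 0.52, edgeR adjusted p = 0.0382). The first call was lost without either BL/6 library, the second without CD150+CD48+ LSK replicate 1, and the third without any 1 of the BL/6 or CD150+CD48+ LSK libraries and with limma-voom (adjusted p = 0.0576).

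Other surface proteins of the pathway were mostly near 0. Hhip, a decoy receptor that is also a pathway target, had 0 to 2 counts. The co-receptor genes Boc and Gas1 had 0 to 3 and 0 to 9 counts, with Gas1 at 9 and 8 in pMT-10 CMPs. The third co-receptor, Cdon, was detected, at 5.29 CPM in HSC and 1.95 to 2.49 CPM in the other groups, and was not called in any of the 4 comparisons. Gpr161, a ciliary receptor that restrains the pathway, was at 13.5 CPM in HSC against 4.14 ± 1.02 CPM in pMT-10 CMPs (log2 difference 1.70 ± 0.45, edgeR adjusted p = 0.0247), and was not called against CD150+CD48+ LSK cells (1.39 ± 0.44, edgeR adjusted p = 0.0569). With only the groups compared, Gpr161 was not called against pMT-10 CMPs either. Gpc3, a glypican that binds ligand, was higher in HSC than in CD150+CD48+ LSK cells (7.41 against 2.19 ± 0.0439 CPM, edgeR adjusted p = 0.0403). Arrb2, a beta-arrestin, was higher in CD150+CD48+ LSK cells (93.4 ± 28.1 CPM) than in pMT-10 CMPs (19.4 ± 1.33 CPM), with a log2 difference of 2.27 ± 0.25 (edgeR adjusted p = 0.00134). In HSC it was lower than in CD150+CD48+ LSK cells, as was Arrb1 (log2 differences -1.16 ± 0.31 and -0.97 ± 0.25, edgeR adjusted p = 0.0317 and 0.0293). The calls of Gpc3, Arrb1 and Arrb2 between HSC and CD150+CD48+ LSK cells were lost without any 1 of the BL/6 or CD150+CD48+ LSK libraries, and that of Gpc3 also with DESeq2 (adjusted p = 0.0663).

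Efcab7 and Iqce, whose products tether the Evc and Evc2 proteins at the base of the cilium, did not follow them. Efcab7 had 53 counts in HSC, 110 and 127 in BL/6 CMPs, 76 and 67 in pMT-10 CMPs and 22 and 52 in CD150+CD48+ LSK cells. Its level of 7.02 CPM in HSC lay between that of pMT-10 CMPs (8.08 ± 0.439 CPM) and CD150+CD48+ LSK cells (3.16 ± 0.828 CPM). The lower value in CD150+CD48+ LSK cells than in pMT-10 CMPs was called (log2 difference -1.33 ± 0.33, edgeR adjusted p = 0.0344), but not without either CD150+CD48+ LSK library, without either BL/6 library or with only the groups compared (adjusted p = 0.102). Iqce was at 10.7 CPM in HSC and 9.35 to 13.7 CPM in the other groups, with no call. Neither gene was called in HSC against CD150+CD48+ LSK cells or against pMT-10 CMPs.

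Of 17 cytoplasmic regulators of Gli, all passed the filter. In pMT-10 against BL/6 CMPs 2 rose and 5 fell, 41.2% of the list against 28.0% of all tested genes. Gsk3b, a kinase that marks Gli proteins for processing, fell from 55.4 ± 5.77 to 14.1 ± 1.61 CPM (log2 difference -1.98 ± 0.22, edgeR adjusted p = 0.00132). Prkar1a, a regulatory subunit of protein kinase A, fell by 1.18 ± 0.17 on the log2 scale and Cul3, a ubiquitin ligase scaffold, by 1.02 ± 0.19 (edgeR adjusted p = 0.00252 and 0.00518), the latter call being lost without BL/6 replicate 1. Gsk3b and Prkar1a were higher again in CD150+CD48+ LSK cells than in pMT-10 CMPs (1.13 ± 0.22 and 1.10 ± 0.17, edgeR adjusted p = 0.0145 and 0.00533), calls that were lost without either CD150+CD48+ LSK library, that of Gsk3b also with only the groups compared (adjusted p = 0.058). In HSC Gsk3b (33.0 CPM), Prkar1a (671 CPM) and Cul3 (111 CPM) were also above pMT-10 CMPs (edgeR adjusted p = 0.0107, 0.00327 and 0.0112), which both comparisons share. With only the groups compared, Gsk3b and Cul3 were not called in HSC (adjusted p = 0.164 and 0.131). Cul3 was at 111 CPM both in HSC and, on the same chip, in BL/6 CMPs (± 8.72), against 54.7 ± 4.94 and 72.8 ± 5.07 CPM in pMT-10 CMPs and CD150+CD48+ LSK cells on the other chip. Fbxw11, a ubiquitin ligase subunit, was lower in HSC than in CD150+CD48+ LSK cells (-1.11 ± 0.26, edgeR adjusted p = 0.0204), but not called without either of the latter. Its level also split by chip, at 44.1 CPM in HSC and 43.0 and 45.6 CPM in BL/6 CMPs. On the other chip were pMT-10 CMPs (69.2 and 88.8 CPM) and CD150+CD48+ LSK cells (102 and 88.4 CPM). Fbxw11 was also called higher in pMT-10 than in BL/6 CMPs (0.83 ± 0.20, edgeR adjusted p = 0.0162). In HSC it was called lower than in pMT-10 CMPs (-0.84 ± 0.26, edgeR adjusted p = 0.0406). The ciliary kinesin Kif7 (1.79 to 3.22 CPM by group) and the kinase Stk36 (0.552 to 2.25 CPM) were low and not called. These proteins also act in many other pathways.

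Of 11 genes that hedgehog can induce in other tissues, 6 passed the filter, and the developmental factors Foxf1, Foxl1, Nkx2-2 and Nkx6-1 had 0 counts throughout. Mycn, a growth-promoting factor, was at 43.0 CPM in HSC, 23.6 ± 0.445 CPM in CD150+CD48+ LSK cells, 6.89 ± 2.56 CPM in pMT-10 CMPs and 8.32 ± 0.00796 CPM in BL/6 CMPs. It was higher than in pMT-10 CMPs both in HSC (log2 difference 2.64 ± 0.34, edgeR adjusted p = 0.00133) and in CD150+CD48+ LSK cells (1.78 ± 0.30, edgeR adjusted p = 0.00808), the latter call being lost without either CD150+CD48+ LSK library. Between HSC and CD150+CD48+ LSK cells the difference of Mycn (0.87 ± 0.33) was not called. Bcl2, a survival gene, and Ccnd1, which encodes cyclin D1, rose in pMT-10 against BL/6 CMPs (1.81 ± 0.29 and 1.40 ± 0.27, edgeR adjusted p = 0.0036 and 0.00686), the call of Ccnd1 being lost without either BL/6 library. Sfrp1, a secreted inhibitor of Wnt proteins, had 16 counts in HSC and 0 in the other 6 libraries, at least 6.04-fold higher than in CD150+CD48+ LSK cells (floor of 3 counts per library). Like Evc and Evc2 it passed the filter through the HSC library alone, so its level is a description and its call is not read. All of these have other regulators besides Gli proteins. Snai1 and Ccnd2 were not called in any comparison.

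The primary cilium list held 44 measured genes, of which 43 passed the filter. In HSC against CD150+CD48+ LSK cells the 4 called genes (9.30% of the 43 against 18.8% of all tested genes) all rose, namely Ift20 and Ift57, of intraflagellar transport, Nek8, a ciliary kinase, and Ofd1, of the ciliary base. Their log2 differences were 0.98 ± 0.20, 0.96 ± 0.29, 1.29 ± 0.31 and 0.92 ± 0.26 (edgeR adjusted p = 0.0125, 0.048, 0.0231 and 0.0375), and each call was lost without any 1 of the CD150+CD48+ LSK or BL/6 libraries, that of Ift57 also at a minimum count of 50 (adjusted p = 0.053). In HSC against pMT-10 CMPs 7 rose and 5 fell, 27.9% against 25.5% of all tested genes. Cc2d2a, of the ciliary gate, and Bbs5, of the BBSome, were among the higher ones (28 against 1 and 2 counts, and 17 against 2 and 1). Cep164, which docks the basal body to the membrane, Kif3a, the motor of transport into the cilium, and Mks1, of the gate, were lower (8 against 129 and 63 counts, 86 against 276 and 248, and 30 against 112 and 142). With only the groups compared, Cc2d2a, Bbs5, Kif3a and Mks1 were not called (adjusted p = 0.072, 0.201, 0.109 and 0.0861). In pMT-10 against BL/6 CMPs 4 rose and 6 fell (23.3% against 28.0%), with B9d2 higher (1.32 ± 0.25) and Bbs5 and Wdr19 lower (-3.71 ± 0.72 and -1.84 ± 0.42). The calls of Bbs5 and Wdr19 were lost without either BL/6 library and that of B9d2 without BL/6 replicate 1. In CD150+CD48+ LSK cells against pMT-10 CMPs 2 rose, Bbs5 among them, and 2 fell, Dync2h1 and Cep164 (9.30% against 11.8%), with each call lost without either CD150+CD48+ LSK library, and those of Dync2h1 and Cep164 also without either BL/6 library or with only the groups compared. Every call of Bbs5 shares the pMT-10 CMPs, whose 2 and 1 counts do not exceed the floor. The level of Bbs5 was 2.37 CPM in BL/6 CMPs, 2.32 CPM in CD150+CD48+ LSK cells and 2.25 CPM in HSC.

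**Figure D5:**
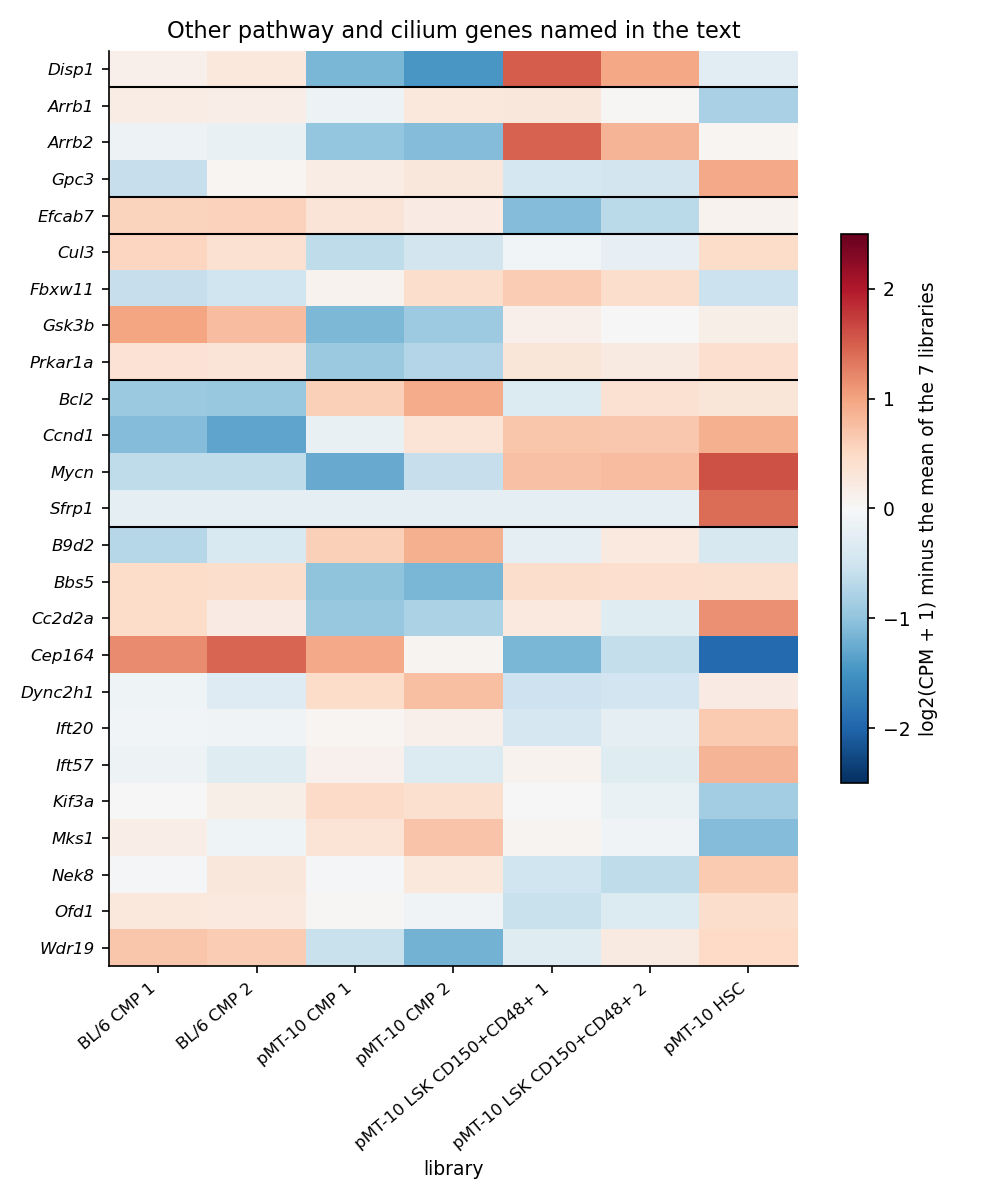
Levels of 25 other pathway and cilium genes called in the 4 comparisons (from the 10 of smallest p where more were called), as log2(CPM + 1) minus the mean of the gene over the 7 libraries, with lines between ligand release, receptors, Evc partners, Gli regulators, targets and cilium genes. Genes within the receptor, Gli regulator and cilium blocks differ in direction, and Mycn and Sfrp1 are highest and Cep164 lowest in the HSC library. The call of Sfrp1 is not read.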

How the data were processed

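Total RNA of sorted cells was made into libraries with a targeted mouse transcriptome kit (Ion AmpliSeq), per the labels' protocols. The authors deposited raw read counts per gene, 1 table for each chip, and columns were matched through the barcodes that the labels name. Per the submitters' processing notes the genome was mm10, and which aligner and counter were used is not given in the sources used here. Reads carry no molecular identifiers, so counting intervals and floors leave out amplification error. Amplicons differ in yield, so levels are compared between libraries and not between genes. Nothing in the labels ties replicates to separate animals, so p-values rest on the spread of these libraries alone, and that spread may be technical.

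The count analysis used R 4.3.3 and edgeR 4.0.16: filterByExpr with a minimum count of 10 (11429 genes left), TMM factors, and 1 fit of all 7 libraries with 4 group means (3 residual degrees of freedom) and the robust quasi-likelihood F-test. A gene is called at a Benjamini-Hochberg adjusted p under 0.05 over those genes. Standard errors come from that fit, which was tested on simulated counts and made more false calls there than the threshold of 0.05 implies in all 4 comparisons. Alternatives were RLE factors, total counts, no filter, a minimum count of 50, DESeq2 1.42.0, limma-voom (limma 3.58.1), only the groups compared, each replicate left out and a replicate block.

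The 8 genes and all lists were chosen with earlier results of these data known. From the lists, the text names genes called in a comparison (the 10 of smallest p if more were called) and genes that define a step. Hhat, Gpr161, Snai1, Ccnd2 and the target genes at 0 were named after their values were seen. Gene positions and promoter windows are from RefSeq for GRCm38.p6, matched by symbol, with windows for 7 of the 8 genes. Some listed genes are not reported here by name.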

Additional observations from a re-analysis of the deposited data

How the results depend on the processing

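RLE factors, total counts, a minimum count of 50, DESeq2 and limma-voom kept every count of called genes within 1.5 times. Without a filter, CD150+CD48+ LSK cells against CMPs gave 2237 genes and HSC against CD150+CD48+ LSK cells 21 pathway genes. With only the groups compared, CD150+CD48+ LSK cells against CMPs gave 595 genes and 6 pathway genes, HSC against CD150+CD48+ LSK cells 3987 and 30, and HSC against CMPs 1042 and 3. With each replicate left out, pMT-10 against BL/6 CMPs gave 582 to 5268 genes and 3 to 32 pathway genes, CD150+CD48+ LSK cells against CMPs 44 to 4274 and 1 to 26, HSC against CD150+CD48+ LSK cells 266 to 4811 and 0 to 35, and HSC against CMPs 1733 to 5222 and 12 to 33. The cause of these shifts was not tested. The lone HSC library could not be left out. The replicate block on the 6 numbered libraries gave 2979 genes and 20 pathway genes for pMT-10 against BL/6 CMPs and 1181 and 11 for CD150+CD48+ LSK cells against CMPs. No effect shared by replicate number was seen (correlations of replicate differences between groups -0.0764 to -0.0192). This cannot show whether replicates of the same number came from the same animals or sort, which the labels do not say. Log2 differences of the members were also computed with RLE factors, total counts, no filter, each replicate left out, and prior counts of 2 and 0.5. Over these 44 values per gene, the log2 difference changed sign in 1 for Smo, 1 for Ptch1 and 6 for Sufu. The other alternatives were not used for the members. The likeness of genes to Evc without HSC was not run, since Evc is at the floor in the other 6 libraries. Spearman correlation shared 0 of the 5 genes most like Evc and 0 of those most like Evc2. Fitted differences of Evc and Evc2 moved with the prior count and are not given. Depth limits what can be said of the Gli genes and of ligands, which lie at 0 to 5 counts.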
